A study of Mus musculus with 39 samples.

Results

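The 10 tumours described here came from mice given tretinoin+ICT and were divided by GEO's own outcome label into 6 responders (R1 to R6) and 4 non-responders (NR1 to NR4), out of 39 tumours in the series. AB1-HA is a mouse mesothelioma line that carries influenza haemagglutinin, and it was grown under the skin on both flanks of BALB/c mice. All 10 mice received tretinoin (all-trans retinoic acid) at 5 mg/kg from day 4 and, from day 7, immune checkpoint therapy (ICT) made up of anti-CTLA-4 and anti-PD-L1 at 100 µg each. One tumour was removed on day 9 for RNA sequencing and the other was left in place, so that R marks a mouse whose remaining tumour was cured and NR a mouse whose remaining tumour grew out. Each library is therefore 1 tumour of 1 mouse, sampled before the outcome was known. The model is 1 transplanted line treated while the tumours were small. The other 29 tumours (10 PBS, 9 tretinoin alone and 10 ICT alone) were used to show where the levels in R and NR lay. They also entered the scaling and centring of those levels and 1 alternative fit over all 39 tumours. The outcome label, not a measured value, placed a tumour in its group.

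Anti-CTLA-4 and anti-PD-L1 remove brakes on T cells, and activated T cells and NK cells release interferon-γ (IFN-γ). IFN-γ raises antigen-presentation genes (MHC class I and class II), chemokines that attract T cells, guanylate-binding proteins, and also PD-L1 (Cd274) and Ido1, which restrain T cells. Tretinoin is a ligand of the retinoic acid receptors, which act on their own set of target genes such as Cyp26b1 and Dhrs3.

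The total count per library ran from 15565521 to 37951183 in R and from 17536099 to 19370154 in NR, and R6 was the library with the highest total. Pairwise correlations of log2 CPM (counts scaled to a common library total after TMM scaling) over the tested genes among the 10 tumours ran from 0.9634 to 0.9878. The libraries carry name series 2 (R1, R2, NR1, NR2, NR3) or 4 (R3, R4, R5, R6, NR4) in their titles, which the labels do not call a batch. The highest count of any of 4 Y-linked genes in any of the 10 libraries was 1.

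No single gene passed the threshold in R against NR. Of 14604 genes tested with edgeR's quasi-likelihood test, 0 (0%) were called higher and 0 lower at a Benjamini-Hochberg adjusted p under 0.05 with a log2 fold change of at least 1, and the smallest adjusted p was 0.0684. At an unadjusted p under 0.05, 1952 genes (13.4%) were higher and 1350 (9.24%) lower in R. At an adjusted p under 0.10 there were 624 higher (4.27%) and 331 lower (2.27%), and 370 genes (2.53%) had every R tumour above every NR tumour while 398 (2.73%) had every R tumour below. Scaling over all 39 tumours moved these non-overlapping genes to 275 above and 560 below. DESeq2 (the tool the study used), at the same fold and adjusted p thresholds, called 108 genes higher (0.843% of 12818) and 13 lower (0.101%). Limma-voom called 0 in either direction, with 1798 higher and 1407 lower at an unadjusted p under 0.05. In what follows a gene is therefore given by its values, and "p under 0.05" means the unadjusted edgeR p. The p-values measure the spread between these 10 tumours. Besides the genes said below to be so chosen, Acp5, Aldoc, Batf3, Ccl24, Cct7, Cdk1, Chil3, Clec9a, Col10a1, Csf2, Ctla4, Ctsk, Cxcl10, Dusp9, Fos, Gbp2, Gmps, H2-Eb1, Ido2, Il1b, Il5, Irf1, Itgbl1, Kdr, Mgl2, Nop56, Pdcd1, Ptn, Siglecf, Tbx21 and Vdr were named after their values were seen.

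The number of edgeR calls depended on whether R5 was in the fit. Without R5, edgeR called 181 genes higher and 24 lower, and the counts at an unadjusted p under 0.05 became 2168 higher (14.9% of 14540) and 2134 lower (14.7%). Of the DESeq2 calls made on all 10 tumours, 96 of the higher and 10 of the lower genes were among them. Among the 4302 genes at an unadjusted p under 0.05 without R5, R5 itself lay nearer the NR mean than the mean of the other 5 R tumours for 3506 (81.5%). Those genes were picked without R5 and by the other 9 tumours, so the share describes where R5 lay. The same share was not computed for any other tumour, so it has no baseline. Leaving out each of the other 9 tumours gave no more than 1 call. At an adjusted p under 0.10, with no fold change minimum, leaving out R6 also raised the counts. They were 1149 higher and 676 lower without R6 and 1559 and 1398 without R5, against 624 and 331 with all 10 tumours. They were 423 and 302 without NR2 and 0 and 0 without any other tumour.

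Chd7 had the smallest edgeR p. Socs2, Cish and Cnr2 were picked from the genes with a small p, and others with a smaller p than Cish were passed over. All 4 were named after their values were seen. Chd7, a chromatin remodeller, measured 87.8, 93.7, 85.4, 85.9, 69.1 and 86.7 CPM in R1 to R6 and 49.0, 48.9, 57.3 and 54.1 in NR1 to NR4. Every R tumour lay above every NR tumour and R5 was the lowest of the R tumours (log2 fold change 0.70 ± 0.09 SE, edgeR adjusted p=0.0684). Socs2 and Cish, feedback inhibitors of cytokine signalling, measured 25.4 to 41.9 CPM in R against 16.6 to 22.5 in NR and 32.6 to 77.7 against 27.1 to 32.0 (log2 fold change 0.90 and 1.08, edgeR adjusted p=0.0841 for both). Cnr2, the cannabinoid receptor of leukocytes, ranged from 15.8 to 32.8 CPM in R and from 8.05 to 11.4 in NR (log2 fold change 1.16 ± 0.21). All 4 genes had non-overlapping groups.

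The gene lists divided into those with most members higher in R, those with most members lower and those near the background of all genes. The largest shares higher in R were those of the T cell, cytotoxic and NK cell, MHC class II, mast cell and MHC class I lists, followed by the IFN-γ, dendritic cell, type 2, hypoxia and glycolysis, and checkpoint lists. The largest share lower, leaving out the lists built from genes seen to be lower, was that of the cell cycle. In bulk tumour RNA, more cells of a type and more RNA per cell cannot be told apart. A list's count is given beside the 13.4% of all genes higher or 9.24% lower at the same p.

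**Figure D1:**
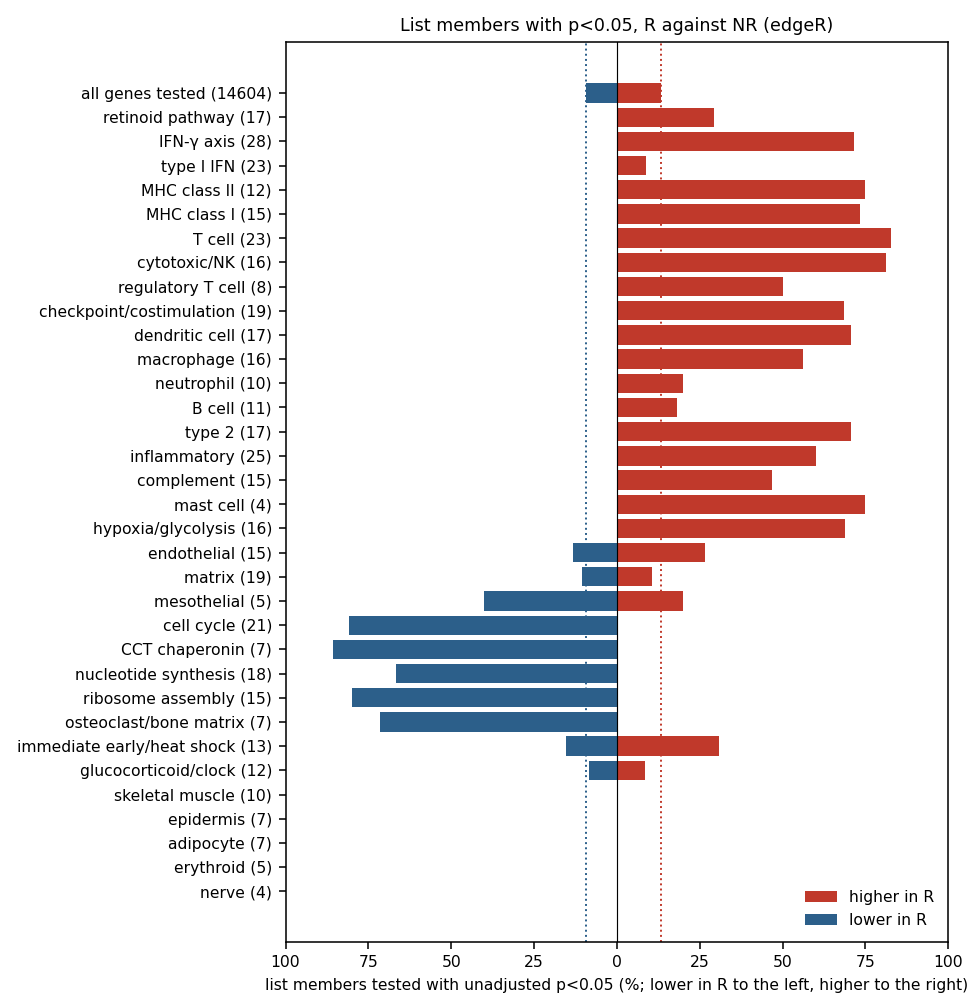
Share of the tested members of each list (number tested in brackets) with an unadjusted edgeR p under 0.05, higher in R to the right in red and lower to the left in blue; the dotted lines mark the 13.4% and 9.24% of all 14604 genes. T cell genes reached 19 of 23 higher and cell cycle genes 17 of 21 lower, while the muscle, epidermis, adipocyte, erythroid and nerve lists had 0 of either.

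Of 28 tested genes of the IFN-γ axis, all 28 had a higher mean in R and 20 had p under 0.05 (median log2 fold change 0.64, against 0.01 over all genes). In 1 fit over all 39 tumours, where the other 3 groups enter the estimate of the spread, the median was the same and 3 of 28 had p under 0.05, against 11.6% of all genes higher and 11.5% lower. Cxcl9, the chemokine that draws CXCR3-bearing T cells, measured 1070, 1010, 1780, 1210, 673 and 813 CPM in R1 to R6 and 481, 945, 586 and 307 in NR1 to NR4 (1093 ± 388 SD, n = 6, against 580 ± 269, n = 4; log2 fold change 0.92 ± 0.33, edgeR adjusted p=0.143). R5 and R6 lay inside the NR range, and NR2 lay close to R1 and R2. Nos2, the inducible nitric oxide synthase of activated macrophages, stood at 105, 78.6, 232, 175, 23 and 38.6 CPM in R1 to R6 and at 17.5, 41.1, 21.6 and 13.7 in NR1 to NR4. R1 to R4 were above every NR tumour for Nos2 and R5 and R6 were not (log2 fold change 2.21 ± 0.69, edgeR adjusted p=0.115). Ido1, which breaks down tryptophan, ranged from 8.22 to 33.3 CPM in R and from 5.19 to 9.92 in NR (log2 fold change 1.26 ± 0.40). Its neighbour enzyme Ido2 ranged from 7.93 to 18 against 3.78 to 7.45, with no overlap. Irf1 and Gbp2, the first a transcription factor and the second a guanylate-binding protein, had log2 fold changes of 0.56 and 0.67 (unadjusted edgeR p=0.0153 and 0.0155); the guanylate-binding protein genes resemble each other, so reads may be shared between them.

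Not every interferon gene leaned as far. Cxcl10, another CXCR3 ligand, measured 124 to 282 CPM in R and 99.7 to 250 in NR (log2 fold change 0.20 ± 0.27). Of 23 type I interferon response genes, 2 (Oasl2 and Zbp1) had p under 0.05 and the median log2 fold change was 0.15. With the name series as a block 7 of 23 had p under 0.05 (median 0.30), against 12.4% of all genes higher. In the fit over all 39 tumours 0 had p under 0.05, against 11.6% of all genes higher. The median was 0.12 in series 2 alone and 0.58 in series 4 alone, where NR4 is the single NR tumour. Over all genes these medians were 0.0 and -0.01, so in series 4 the list leaned further than in the main fit. The difference between this list and the IFN-γ list was not tested.

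The antigen-presentation lists leaned the same way as the IFN-γ list. Of 12 MHC class II presentation genes, 9 had p under 0.05 and 6 an adjusted p under 0.10 (median log2 fold change 0.79). H2-Ab1, a chain of I-A, measured 847, 794, 922, 1030, 422 and 768 CPM in R1 to R6 and 351, 493, 386 and 378 in NR1 to NR4. The other R tumours lay well above the NR tumours and R5 lay among them (log2 fold change 0.99 ± 0.21, edgeR adjusted p=0.0841). H2-Aa, its partner chain, H2-Eb1, a chain of I-E, and Ctss, the protease that trims the invariant chain, had log2 fold changes of 0.92, 0.90 and 0.67. Of 15 MHC class I genes, 11 had p under 0.05 (median 0.43). In the fit over all 39 tumours 3 of the 12 class II and 0 of the 15 class I genes had p under 0.05, with medians of 0.78 and 0.42. B2m, the shared light chain, ranged from 2460 to 4200 CPM in R and from 1750 to 2850 in NR, and Nlrc5, the class I transactivator, from 314 to 376 against 206 to 312 with no overlap (log2 fold change 0.35 ± 0.11).

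Promoter stretches of the class II, class I, IFN-γ and cell cycle lists are shown because their genes leaned together, and because RefSeq holds windows for them. The windows were read upstream of the RefSeq start site on GRCm38.p6. The motifs searched on both strands of the 250 upstream bases were the Y box of MHC class II promoters (CTGATTGG), an IRF or ISRE core (GAAANNGAA), a GAS site (TTCNNNGAA), a kB site (GGGANTTCC) and the cell cycle homology region (TTTGAA). GAS, ISRE and kB matches can overlap. In the stretches below the capitals mark the match named.
H2-Aa, Y box: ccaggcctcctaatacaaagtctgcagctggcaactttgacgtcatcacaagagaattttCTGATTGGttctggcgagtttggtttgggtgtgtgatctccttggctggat
H2-Eb1, Y box: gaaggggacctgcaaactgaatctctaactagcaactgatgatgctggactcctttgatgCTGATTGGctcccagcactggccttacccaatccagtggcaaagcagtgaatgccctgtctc
B2m, ISRE core: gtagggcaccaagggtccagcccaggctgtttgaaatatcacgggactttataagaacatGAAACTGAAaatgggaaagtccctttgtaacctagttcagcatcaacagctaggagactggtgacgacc
Cxcl9, ISRE core: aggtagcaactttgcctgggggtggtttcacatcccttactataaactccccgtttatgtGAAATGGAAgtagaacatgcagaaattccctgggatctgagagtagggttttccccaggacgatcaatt
Cxcl9, kB: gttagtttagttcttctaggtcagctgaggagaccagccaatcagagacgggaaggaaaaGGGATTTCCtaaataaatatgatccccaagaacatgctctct
Cdk1, cell cycle homology region: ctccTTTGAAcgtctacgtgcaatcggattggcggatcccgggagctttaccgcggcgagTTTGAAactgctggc

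In that order the stretches lie at chr17:34287824-34287934 (minus strand), chr17:34305745-34305866 (plus strand), chr2:122147488-122147616 (plus strand), chr5:92328186-92328314 (minus strand), chr5:92328080-92328181 (minus strand), chr10:69352913-69352987 (minus strand). The Y box was found in 3 of 10 class II windows (30%) and in 5 of 13 class I windows (38.5%), against 4.07% of 27025 windows of all genes. The ISRE core was found in 11 of 18 IFN-γ axis windows (61.1%) and 7 of 15 type I interferon windows (46.7%), against 7.16% of all. The GAS site was in 6 of the 18 IFN-γ windows (33.3%, against 7.18% of all) and the kB site in 3 (16.7%, against 1.42%). In the inflammatory list, which holds NF-kB feedback genes, the kB site was in 1 of 17 windows (5.88%). The cell cycle homology region was in 5 of 17 cell cycle windows (29.4%, against 16.3%), but also in 4 of 13 type 2 windows (30.8%) and 4 of 18 IFN-γ windows (22.2%), and the Y box was in 4 of 17 cell cycle windows (23.5%). Among the 9915 windows of tested genes the shares were 5.66% for the Y box, 6.49% for the ISRE core, 6.21% for GAS, 1.72% for kB and 11.2% for the cell cycle homology region. The matches are descriptions of letters in these windows.

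T cell genes had a higher mean in R in 23 of 23 tested, and 19 had p under 0.05 (median log2 fold change 0.65), against 8 of 23 in the fit over all 39 tumours. Cd4, the co-receptor of helper T cells, measured 22.5, 20.9, 22.7, 20.2, 12.3 and 23.8 CPM in R1 to R6 and 11.6, 14.5, 11 and 9.99 in NR1 to NR4. R5 again lay within the NR range and the other 5 lay above it (log2 fold change 0.80 ± 0.18, edgeR adjusted p=0.0841). Zap70, the kinase that reads the T cell receptor, ranged from 7.83 to 11.9 CPM in R and from 5.21 to 7.32 in NR, and Cd6, a T cell surface protein, from 7.46 to 10.9 against 5.55 to 6.44. Neither overlapped. Cd3e measured 13.6, 9.49, 10.7, 10.3, 5.33 and 9.40 CPM in R1 to R6 and 5.51, 8.01, 6.33 and 6.66 in NR1 to NR4 (log2 fold change 0.57 ± 0.22, edgeR adjusted p=0.151). Cd8a, the co-receptor of cytotoxic T cells, ranged from 6.08 to 17.5 against 5.19 to 9.45 (log2 fold change 0.67 ± 0.31, edgeR adjusted p=0.224). Ptprc (CD45), carried by all leukocytes, was at 446 ± 91.0 SD CPM in R (n = 6) and 328 ± 84.2 in NR (n = 4), a log2 fold change of 0.44 ± 0.18.

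Cytotoxic and NK cell genes had 13 of 16 at p under 0.05 (median 0.72), and 4 of 16 in the fit over all 39 tumours. Eomes and Tbx21, the transcription factors of effector T and NK cells, had log2 fold changes of 0.87 and 0.97, Stat4, which carries IL-12 signals, 0.70, and Klrg1, a receptor of mature NK and effector T cells, 0.95. Of 8 regulatory T cell genes, 4 had p under 0.05, led by Il2ra, the high-affinity IL-2 receptor chain (22.7 to 35.6 CPM in R, 15.3 to 23.8 in NR). Foxp3, the factor that defines these cells, measured 9.46, 6.86, 4.08, 7.76, 9.65 and 16.0 CPM in R1 to R6 and 7.72, 5.94, 7.11 and 9.28 in NR1 to NR4. The Foxp3 groups overlapped throughout (log2 fold change 0.26 ± 0.30, edgeR adjusted p=0.646).

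Among 19 checkpoint and costimulation genes, 13 had p under 0.05 and all 19 a higher mean in R (median log2 fold change 0.59). In the fit over all 39 tumours 8 had p under 0.05. Pdcd1lg2 (PD-L2), the second ligand of PD-1, measured 99.8, 102, 136, 117, 26.8 and 42.3 CPM in R1 to R6 and 17.7, 18.5, 21.8 and 22.8 in NR1 to NR4. No R tumour overlapped an NR tumour, although R5 was close to them (log2 fold change 2.11 ± 0.44, edgeR adjusted p=0.0841, DESeq2 adjusted p=0.000417). Cd274 (PD-L1), which 1 of the given antibodies binds, measured 326, 396, 512, 423, 188 and 211 CPM in R1 to R6 and 141, 250, 171 and 107 in NR1 to NR4 (log2 fold change 1.03 ± 0.33, edgeR adjusted p=0.110). For Cd274, R5 and R6 lay below NR2. The TNF-receptor family members Tnfrsf9 (4-1BB) and Tnfrsf18 (GITR), which costimulate T cells, did not overlap (31.6 to 64.8 against 23.3 to 27.7 CPM, and 9.27 to 14.9 against 7.83 to 8.35). Ctla4, the target of the other antibody, measured 6.45 to 13.2 CPM in R and 5.68 to 12.6 in NR (log2 fold change 0.26 ± 0.24), and Pdcd1 (PD-1) 4.51 to 12.8 against 4.21 to 6.10 (log2 fold change 0.59 ± 0.25, edgeR adjusted p=0.197).

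**Figure D2:**
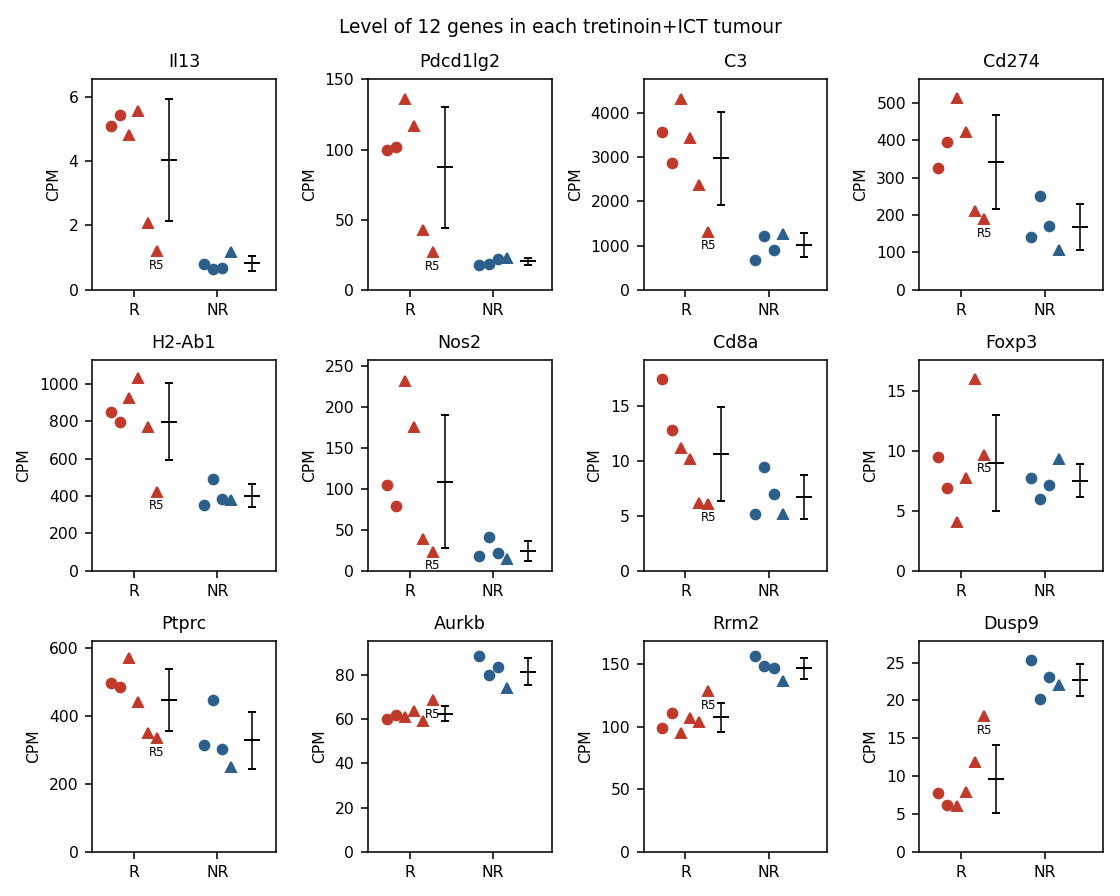
CPM (TMM, linear axis from 0) of 12 genes in each of 6 R (red) and 4 NR (blue) tumours; circles are name series 2, triangles name series 4, and the black bar is the group mean with its SD. R5 is marked and lies with or next to the NR tumours for Pdcd1lg2, H2-Ab1, Nos2 and Cd274, while Aurkb, Rrm2 and Dusp9 lie lower in every R tumour than in any NR tumour.

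The type 2 list had the largest median of the immune lists tested here. It holds the cytokines of type 2 helper T cells and innate lymphoid cells with their chemokines, eosinophil genes and genes of alternatively activated macrophages. All 17 tested genes had a higher mean in R, 12 had p under 0.05 and 6 were DESeq2 calls (median log2 fold change 1.01). The median was 1.77 in name series 2 alone and 0.29 in name series 4 alone, where NR4 is the single NR tumour. In series 4 alone the IFN-γ, MHC class II and T cell medians were larger, at 1.29, 1.01 and 0.72. The regulatory T cell and mast cell medians were smaller there, at 0.01 and 0.16. Il13 itself, a low-count gene, measured 5.08, 5.43, 4.81, 5.57, 1.19 and 2.09 CPM in R1 to R6 and 0.810, 0.637, 0.672 and 1.16 in NR1 to NR4. R1 to R4 stood together near 5 CPM, and R5, at the NR4 level, was the closest R tumour to NR (log2 fold change 2.28 ± 0.45, edgeR adjusted p=0.0841). Il5, the eosinophil growth cytokine, ranged from 0.376 to 1.81 CPM in R and from 0.212 to 0.656 in NR.

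The chemokines for CCR4- and CCR3-bearing cells leaned with Il13. Ccl22 measured 115, 91.6, 115, 105, 49.6 and 105 CPM in R1 to R6 and 42.3, 36.8, 39.6 and 62.0 in NR1 to NR4 (log2 fold change 1.10 ± 0.23). Ccl17 ranged from 15.2 to 39.1 against 8.12 to 19.4 CPM and Ccl24 from 6.27 to 46.0 against 5.29 to 10.3. Mgl2, a lectin of alternatively activated macrophages and some dendritic cells, ranged from 85.0 to 262 in R, and in NR NR4 stood at 130 and the other 3 at 51.6 to 61.5. Siglecf, an eosinophil receptor, measured 3.01 to 12.2 against 2.35 to 5.45 CPM. NR4 was the highest NR tumour for Ccl17, Ccl22, Ccl24, Mgl2, Siglecf and Chil3.

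Further genes linked with IL-4 and IL-13 signalling or with myeloid cells, named after their values were seen, leaned in the same tumours. Il13ra2, the decoy receptor for IL-13, measured 28.4, 33.9, 38.3, 33.8, 9.59 and 12 CPM in R1 to R6 and 6.70, 6.74, 5.99 and 12.8 in NR1 to NR4 (log2 fold change 1.69 ± 0.44, edgeR adjusted p=0.0907). Slc7a2, an arginine transporter, ranged from 63.3 to 213 against 29.9 to 86.1 CPM. F10 and F7, coagulation factors that macrophages can make, ranged from 21.9 to 89.2 against 14.7 to 27.1 and from 7.02 to 28.6 against 2.81 to 13.1. Car4, a membrane carbonic anhydrase, ranged from 22.3 to 83.5 against 13.2 to 27.3. In each of these 5 genes R1 to R4 were above every NR tumour, and R5 was the lowest R tumour.

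Dendritic cell genes had 12 of 17 at p under 0.05 (median 0.74). Irf4, a factor of type 2 conventional dendritic cells, measured 18 to 30.7 CPM in R and 9.94 to 16.9 in NR, and Itgax (CD11c) 71.0 to 157 against 54.5 to 66.9. Neither gene overlapped. Batf3 and Clec9a, a factor and a surface lectin of cross-presenting type 1 dendritic cells, ranged from 6.08 to 20.5 against 4.48 to 7.38 CPM and from 13.0 to 33.3 against 9.02 to 17.2. Macrophage genes had 9 of 16 at p under 0.05 (median 0.34; 4 higher and 1 lower in the fit over all 39 tumours), among them Fcgr3, an activating Fc receptor (281 to 459 against 187 to 245 CPM), the inhibitory Fcgr2b, and Trem2, a lipid receptor (81.1 to 94.1 against 64.4 to 74.3). Fcgr3 and Trem2 did not overlap. Vdr, the vitamin D receptor, ranged from 36 to 88.1 against 24.6 to 37.4 CPM (log2 fold change 1.04 ± 0.23).

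Complement and inflammatory genes also leaned to R. C3, the central complement component, measured 3560, 2870, 4320, 3430, 1310 and 2360 CPM in R1 to R6 and 674, 1210, 907 and 1270 in NR1 to NR4. All R tumours were above all NR tumours, R5 by little (2973 ± 1049 SD, n = 6, against 1016 ± 278, n = 4; log2 fold change 1.55 ± 0.31, edgeR adjusted p=0.0841). C1s1 and C1ra, proteases that start the classical pathway, had log2 fold changes of 0.80 and 0.71, and 7 of 15 complement genes had p under 0.05 (median 0.52). Of 25 inflammatory genes, 15 had p under 0.05 (median 0.61), led by Ticam2, an adaptor of TLR4, Ltb, a lymphotoxin chain, and Tnfaip3 (A20), a brake on NF-κB. The Il1b groups overlapped in part (31.2 to 83.5 CPM in R, 22.7 to 65.9 in NR, log2 fold change 0.10 ± 0.34). R2 (83.5) and R4 (72.5) lay above every NR tumour and NR4 (22.7) below every R tumour. Csf2 (GM-CSF), a product of activated lymphocytes, ranged from 1.57 to 4.58 CPM against 0.810 to 1.91.

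Neutrophil and B cell genes were nearer the background in their counts at p under 0.05, though most had a higher mean in R. Of 10 neutrophil genes 9 had a higher mean and 2 had p under 0.05 (Csf3r and S100a8), with a median log2 fold change of 0.46. With the name series as a block 4 of the 10 had p under 0.05. Mmp9, a protease of neutrophils and macrophages, had a lower mean in R (149 to 237 against 153 to 292 CPM, log2 fold change -0.41 ± 0.19). Of 11 B cell genes 10 had a higher mean and 2 had p under 0.05 (Cd22 and Igkc), with a median of 0.22, and 3 with the block. Ms4a1 (CD20) measured 0.492 to 5.31 CPM in R and 0.504 to 1.49 in NR. Of 4 mast cell genes 3 had p under 0.05, with small differences (Kit, the receptor of stem cell factor, 29.6 to 35.7 against 25.7 to 29.0 CPM).

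Hypoxia and glycolysis genes had a higher mean in R in 16 of 16, and 11 had p under 0.05 (median 0.58). Hk2, the first enzyme of glycolysis, measured 157 to 262 CPM in R and 123 to 168 in NR. Pfkfb3, which speeds glycolysis, had a log2 fold change of 0.83 ± 0.23 and Vegfa, the endothelial growth factor, 0.54 ± 0.14. Slc16a3, the lactate exporter, named after its values were seen, measured 109, 111, 176, 152, 62.0 and 71.8 CPM in R1 to R6 and 47.2, 63.8, 49.6 and 50 in NR1 to NR4, so that only R5 fell within the NR range (log2 fold change 1.11 ± 0.28). Aldoc, a glycolytic aldolase, ranged from 9.34 to 37.9 against 6.96 to 9.63.

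In the endothelial list the members went both ways. Flt1 (VEGFR1) measured 97.2, 104, 125, 104, 55.5 and 66.0 CPM in R1 to R6 and 42.2, 43.9, 46.2 and 46.4 in NR1 to NR4 (log2 fold change 1.04 ± 0.20, edgeR adjusted p=0.0841), and Pecam1 (CD31) did not overlap either (116 to 158 against 101 to 113). Apln, a peptide of sprouting vessels, was lower in every R tumour (31.3 to 56.5 against 58.9 to 66.7 CPM, log2 fold change -0.61 ± 0.14), and Kdr (VEGFR2) had a lower mean (15.0 to 33.5 against 25.3 to 39.4). Over 15 endothelial genes 4 were higher and 2 lower at p under 0.05. Of 19 matrix genes, 2 were higher, among them Tgfb1, and 2 lower, among them Col11a1, a fibrillar collagen chain (25.4 to 85.1 against 93.3 to 108 CPM, no overlap). Of 5 mesothelial genes, Wt1 measured 4.34, 3.95, 5.31, 5.08, 1.07 and 4.42 CPM in R1 to R6 and 0.648, 1.27, 1.79 and 2.67 in NR1 to NR4. R5 fell within the NR range and the other R tumours lay above it (log2 fold change 1.33 ± 0.44), while Cdh2 and Cxadr, 2 adhesion molecules, had lower means in R.

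Cell cycle genes leaned lower in R. All 21 had a lower mean and 17 had p under 0.05, 8 with an adjusted p under 0.10 (median log2 fold change -0.32, range -0.45 to -0.07). Aurkb, a kinase of chromosome segregation, measured 60.2, 61.8, 61.3, 64.0, 68.6 and 59.3 CPM in R1 to R6 and 88.8, 80.1, 83.6 and 74.3 in NR1 to NR4 (62.5 ± 3.40 SD, n = 6, against 81.7 ± 6.09, n = 4; log2 fold change -0.39 ± 0.07, edgeR adjusted p=0.0841). Every R tumour lay below every NR tumour, R5 included. Rrm2, a subunit of ribonucleotide reductase, measured 99.2, 111, 95.1, 107, 128 and 104 CPM in R1 to R6 and 156, 148, 147 and 136 in NR1 to NR4, and Ccnb1, the mitotic cyclin, ranged from 62.4 to 84.3 against 85.2 to 111. Cdk1, the mitotic kinase whose promoter is shown above, ranged from 109 to 143 against 139 to 167. Mki67 did not follow them. It measured 493, 443, 381, 425, 693 and 696 CPM in R1 to R6 and 594, 519, 614 and 545 in NR1 to NR4, so that R5 and R6 were the highest of the 10 tumours (log2 fold change -0.12 ± 0.17, edgeR adjusted p=0.717).

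Further groups of genes, chosen because their members had been seen among the lower genes, showed a similar small shift, and their counts are a description. Of 18 enzymes of nucleotide synthesis 12 were lower at p under 0.05, of 15 nucleolar ribosome assembly factors 12, and of 7 subunits of the CCT chaperonin, which folds tubulin and actin, 6 (medians -0.31, -0.34 and -0.20). Gmps, which makes GMP, measured 122 to 143 CPM in R and 154 to 170 in NR, Nop56, a nucleolar protein, 129 to 162 against 166 to 193, and Cct7 309 to 368 against 397 to 456. None of the 3 overlapped. The per-tumour level of each of these lists, taken as the mean of log2 CPM over its members, was lower in all 6 R tumours than in any NR tumour on the scale of all 39 tumours. R5 was the highest R tumour and close to NR2: -0.08 against -0.06 for nucleotide synthesis, -0.11 against -0.08 for ribosome assembly and -0.12 against -0.06 for CCT. That scale put every R tumour below for 560 genes, against 398 when scaled over the 10, and whether the separation depends on it was not tested.

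Fewer genes had larger negative differences. Dusp9, a phosphatase that switches off MAP kinases, measured 7.70, 6.20, 6.09, 7.92, 17.9 and 11.8 CPM in R1 to R6 and 25.3, 20.2, 23.1 and 22.1 in NR1 to NR4, with no overlap (log2 fold change -1.24 ± 0.28, edgeR adjusted p=0.0841). Ptn (pleiotrophin), a growth factor, ranged from 5.76 to 31.5 against 33.6 to 54.3. Itgbl1 ranged from 83.2 to 127 against 143 to 184 (log2 fold change -0.63 ± 0.11). Acp5 and Ctsk, enzymes of osteoclasts that some macrophages also make, and Col10a1, a collagen of hypertrophic cartilage, were high in NR1 to NR3 and not in NR4. Acp5 measured 145, 119, 117 and 36.5 CPM in NR1 to NR4 and 30.2 to 71.2 in R. In a list of 7 such genes, also chosen with the values known, 5 were lower at p under 0.05 (median -0.89). With the name series as a block 2 of the 7 had p under 0.05 (median -0.62), and in the fit over all 39 tumours 3. Within name series 2 the median was -1.15, and within name series 4, where NR4 is the single NR tumour, it was 0.27.

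**Figure D3:**
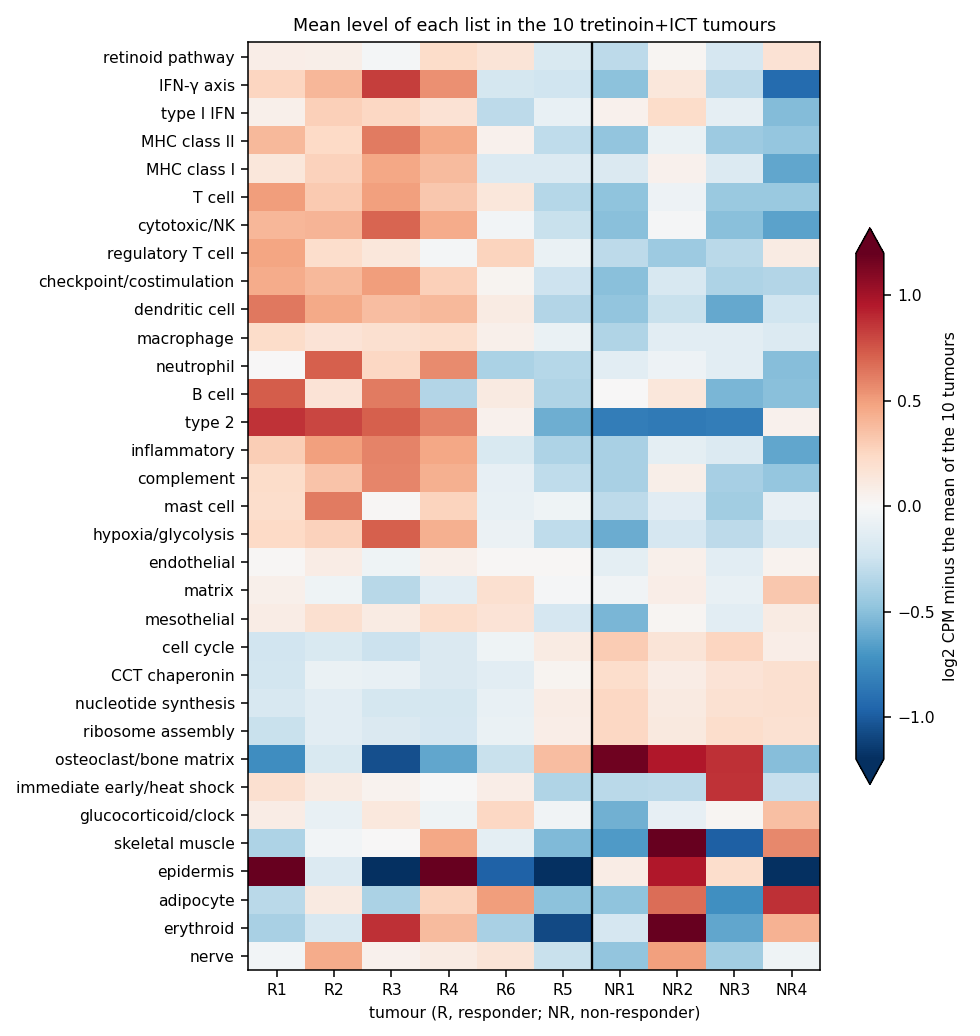
Mean log2 CPM of each list in each of the 10 tumours, minus the mean of the 10 (colour, log2 scale cut at 1.2), with R left of the line and R5 placed next to it. R1 to R4 are red in most immune lists, R4 being blue in the B cell list, and blue in the cell cycle and the 3 biosynthesis lists, and R5 has the colours of the NR tumours in most lists.

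In each immune list the lowest of the 10 tumours was an NR tumour and the highest an R tumour, but not the same ones throughout. Levels are given as the mean over a list's tested genes of log2 CPM minus the gene's mean in all 39 tumours. For the T cell list these were 0.74, 0.55, 0.73, 0.56, -0.11 and 0.37 in R1 to R6 and -0.25, 0.17, -0.21 and -0.21 in NR1 to NR4. R5 alone of the R tumours was not above every NR tumour. The type 2 list gave 1.81, 1.75, 1.66, 1.54, 0.36 and 1.0 in R1 to R6 and 0.11, 0.10, 0.11 and 1.0 in NR1 to NR4, so that NR4 and R6 stood equal. The IFN-γ list gave 1.34, 1.48, 1.91, 1.63, 0.84 and 0.87 in R1 to R6 and 0.59, 1.21, 0.76 and 0.15 in NR1 to NR4, where NR2 lay above R5 and R6 and NR4 lay lowest. NR4 thus had the lowest IFN-γ level and the highest type 2 level among the NR tumours. The cell cycle list gave -0.36, -0.31, -0.39, -0.30, -0.03 and -0.18 in R1 to R6 and 0.17, 0.02, 0.13 and -0.05 in NR1 to NR4.

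Set beside the other treatment groups on the same scale, both outcome groups had a higher median than PBS in the IFN-γ list, although NR4, at 0.15, lay below the highest PBS tumour, at 0.29. The medians were 1.41 in R, 0.67 in NR, 0.33 in ICT alone, -0.55 in tretinoin alone and -1.21 in PBS. For the T cell list they were 0.55 in R, -0.21 in NR, -0.28 in ICT, 0.13 in tretinoin and -0.32 in PBS, and for the type 2 list 1.60, 0.11, 0.21, -0.39 and -0.75. The cell cycle median was -0.31 in R, against 0.07 in NR and 0.02 to 0.15 in the other 3 groups. Single tumours of the other groups went beyond R in the T cell and cell cycle lists. For the T cell list ICT3 (1.27), ICT7 (1.07) and Tretinoin3 (0.97) lay above the highest R tumour (0.74). For the cell cycle list ICT3 (-0.57) and Tretinoin3 (-0.46) lay below the lowest R tumour (-0.39). In the IFN-γ and type 2 lists the highest level was in R, at 1.91 and 1.81. Il13 averaged 4.12 ± 1.93 SD CPM in R (n = 6) on this scale, 0.853 ± 0.254 in NR (n = 4), 0.900 ± 0.767 in ICT (n = 10), 0.558 ± 0.633 in tretinoin (n = 9) and 0.182 ± 0.135 in PBS (n = 10). Vdr averaged 70.2 ± 20.0 CPM in R, 34.8 ± 6.27 in NR and 8.91 to 23.5 in the other groups. These levels were set side by side and not tested.

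The retinoid pathway, the direct target of the drug, had a small median difference by outcome, with some members higher in R. Of 17 genes, 5 were higher at p under 0.05, against 13.4% of all genes, and 0 lower. The median log2 fold change was 0.10. Cyp26b1, the enzyme that clears retinoic acid, measured 108, 138, 141, 166, 114 and 166 CPM in R1 to R6 and 51.3, 109, 113 and 117 in NR1 to NR4. NR1 stood apart and the other 3 NR tumours lay within or next to the lower part of the R range (log2 fold change 0.51 ± 0.22, edgeR adjusted p=0.200). Dhrs3, which turns retinal back to retinol, ranged from 158 to 200 against 108 to 177 (log2 fold change 0.28 ± 0.12). On the scale of all 39 tumours Cyp26b1 averaged 142 CPM in R and 101 in NR, against 303 in tretinoin alone, 17.6 in ICT alone and 8.33 in PBS. Aldh1a2, which makes retinoic acid, had the largest difference of the list (3.07 to 15.1 against 3.02 to 6.00 CPM, log2 fold change 1.27 ± 0.36, edgeR adjusted p=0.0942). Tgm2, a transglutaminase raised by retinoids, ranged from 610 to 1250 against 467 to 681, and Rara, a retinoic acid receptor, had a log2 fold change of 0.31 ± 0.11.

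Markers of neighbouring tissue varied widely between tumours, and their part in the results above was not tested. The epidermis list had a higher mean in R in 7 of 7 genes, 0 of 7 at p under 0.05 and a median log2 fold change of 1.18, with levels of 3.20 in R1 and 2.80 in R4 and -0.91 to 0.46 in the other R tumours, against -1.21 to 1.58 in NR. The summed level of its genes ran from 6.04 to 89.6 CPM in R and from 5.18 to 21.9 in NR. Skeletal muscle genes had a lower mean in R in 10 of 10 (median -0.52, 0 at p under 0.05) and erythroid genes in 5 of 5 (median -0.36). Skeletal muscle genes were highest in NR2 (1.94, against -0.71 to 0.85 in the other NR tumours and -0.26 to 0.74 in R), with a summed level of 903 to 1820 CPM in R and 644 to 4400 in NR. Adipocyte, erythroid and nerve genes had 0 of 7, 0 of 5 and 0 of 4 at p under 0.05. Without R1, R4 and NR2, T cell genes had 18 of 23, MHC class II genes 8 of 12 and IFN-γ genes 23 of 28 higher at p under 0.05, cell cycle genes had 13 of 21 lower, and type 2 genes had 6 of 17 higher, against 9.05% of all genes higher and 4.68% lower in that fit. Among the immediate early and heat shock genes 4 of 13 were higher and 2 lower. The lower ones included Fos, an early response factor, whose log2 fold change of -2.41 came with 432 CPM in NR3, against 20.4 to 41.9 in the other NR tumours and 18.9 to 32.4 in R. Of 12 glucocorticoid and clock genes 1 was higher (Dbp) and 1 lower (Arntl) at p under 0.05.

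Within each name series the medians of the T cell, IFN-γ, type 2 and cell cycle lists kept their sign, but their sizes differed. Not every list did so. From series 2 to series 4 the regulatory T cell median went from 0.81 to 0.01 and the retinoid median from 0.13 to -0.1. In series 2 (2 R, 3 NR) the median log2 fold change was 0.76 for T cell genes, 0.48 for IFN-γ, 1.77 for type 2 and -0.45 for the cell cycle, with 155 genes called higher and 20 lower by edgeR. In series 4 (4 R, with NR4 as the single NR tumour) the medians were 0.72, 1.29, 0.29 and -0.17, with 1 call higher and 4 lower, and there the lone NR tumour was assumed to vary like the R tumours. With the name series as a block in the fit on all 10 tumours, 0 genes were called and 20 of 23 T cell, 23 of 28 IFN-γ, 13 of 17 type 2 and 15 of 21 cell cycle genes had p under 0.05 (12.4% of all genes higher and 8.79% lower).

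The difference between R and NR missed p=0.05 on both leading principal components. A principal component analysis of log2 CPM over the 500 most variable genes gave a first component with 38.9% of the variance, on which R differed from NR by 14.8 (exact permutation test over 210 splits, two-sided p=0.31), and a second with 16.5% and a difference of 12.9 (exact permutation p=0.143). Keratin and keratin-associated genes of hair and skin made up 20 of the 30 genes with the highest weight on the first component, and R1, at 31.9, and R4, at 36.6, lay at that end. On the second component R3 stood highest, at 30.2. With counts variance stabilized by DESeq2 the difference was 14.2 on the first component (exact permutation p=0.0524) and 5.45 on the second (exact permutation p=0.4). Over the 2000 most variable genes it was 24.1 (exact permutation p=0.129) and 8.66 (exact permutation p=0.524). Pseudogenes made up 129 of the 500 genes, and reads of such copies cannot be told from those of their parent genes with certainty.

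**Figure D4:**
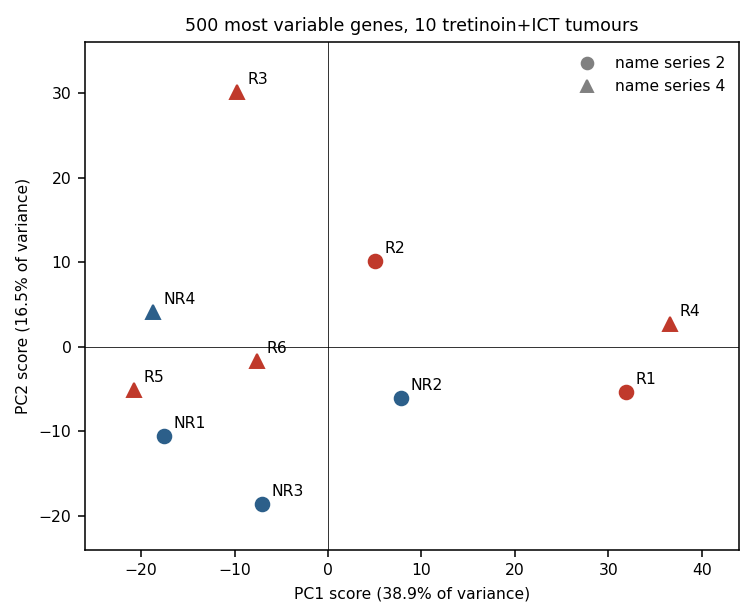
Scores of the 10 tumours on the first 2 principal components of log2 CPM over the 500 most variable genes (R red, NR blue; circles name series 2, triangles name series 4). R1 and R4 lie at the right end, R3 at the top, and R5 at the left beside NR1 and NR4.

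**Figure D5:**
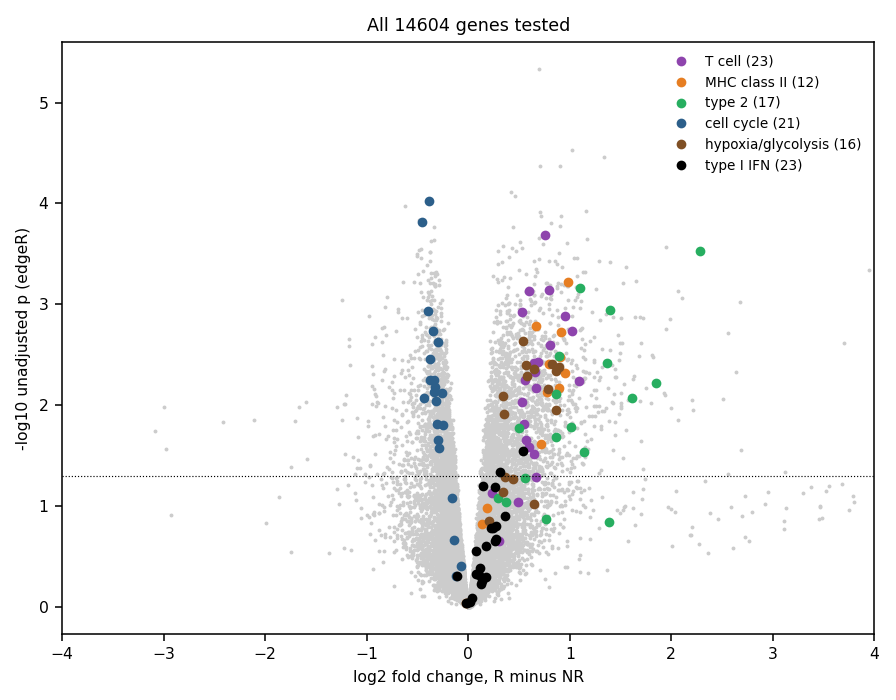
Log2 fold change (R minus NR) against -log10 of the unadjusted edgeR p for the 14604 genes tested, with 6 lists coloured and the dotted line at p=0.05; 13 genes beyond a log2 fold change of 4 in either direction are outside the axis. T cell, MHC class II, type 2 and hypoxia genes lie to the right, cell cycle genes in a narrow band to the left, and type I interferon genes near 0.

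On the GENCODE M21 annotation (GRCm38), Il13 spans chromosome 11, 53631324 to 53634702, C3 chromosome 17, 57203970 to 57228136, Cd274 chromosome 19, 29367455 to 29388095, and Nos2 chromosome 11, 78920787 to 78960254. Aurkb spans chromosome 11, 69045647 to 69051664, Rrm2 chromosome 12, 24708241 to 24714146, and Dusp9 chromosome X, 73639419 to 73643514. The counts are per gene over its exons, so no isoform was resolved.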

How the data were processed

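Single-end reads were aligned by the authors to the mouse genome with HISAT2 2.0.4 and counted per gene with SummariseOverlaps; strand mode and the treatment of multi-mapping reads are not given in the sources used here. The deposited values are whole-number counts per gene for 39676 genes. Groups were taken from the labels. Gene types and positions came from GENCODE M21 (36719 of 39676 identifiers, 92.55%, matched with version). R and NR were compared with edgeR 4.0.16 (filterByExpr, TMM, robust quasi-likelihood test, R 4.3.3) on the 10 tumours, with Benjamini-Hochberg adjustment over 14604 genes. Alternatives were DESeq2 1.42.0, limma-voom 3.58.1, other filters, scalings and samples. The tests were first run on simulated data with known changes. Per-tumour CPM used TMM over the 10 tumours, and levels beside other groups TMM over all 39. Log2 CPM used a prior count of 2. The members, the 30 lists and the tests were chosen with earlier results of these data known, and 4 lists and some named genes after values were seen. Genes named were the 3 of smallest p in each list, a set always named, and further genes chosen after their values were seen. Of 476 list genes, 422 were in the counts used and 406 tested; the rest were not analysed here, and a few named genes are not reported here. Promoters and motifs were read from RefSeq windows (GRCm38.p6).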

Additional observations from a re-analysis of the deposited data

Results flagged for a closer look

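Within each group the highest or lowest tumour was compared with the others in 398 sets of values (totals, principal components, list levels and named genes), and 37 (9.30%) stood apart by Dixon's criterion, which chance alone gives in about 1 in 20 groups. The values overlap, since many of these genes belong to the lists.

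R5 stood apart in 11. It was the lowest R tumour for Chd7 (69.1 CPM, others 85.4 to 93.7), Ccl22 (49.6, others 91.6 to 115), Cd4 (12.3, others 20.2 to 23.8), Il2ra (22.7, others 34.0 to 35.6), Rasal3 (37.5, others 50.5 to 57.2) and Wt1 (1.07, others 3.95 to 5.31). It was the highest R tumour for Cdk1 (143, others 109 to 120), Gmps (143, others 122 to 129) and Col10a1 (17.2, others 1.73 to 6.89). Its levels of the mesothelial list (-0.01) and of the immediate early and heat shock list (0.06) were the lowest of the R tumours.

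NR4 stood apart in 9. It was the highest NR tumour in the type 2 list (1.0, others 0.10 to 0.11), and for Mgl2 (130 CPM, others 51.6 to 61.5), Chil3 (67.1, others 7.08 to 9.71), Il13ra2 (12.8, others 5.99 to 6.74), F7 (13.1, others 2.81 to 3.92) and Cish (32.0, others 27.1 to 27.6). It was the lowest in the neutrophil list (0.10, others 0.48 to 0.55) and for Il1b (22.7, others 59.1 to 65.9) and Mmp9 (153, others 282 to 292).

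NR2 was the highest NR tumour in the MHC class II list (0.46, others 0.06 to 0.10), the T cell list (0.17), the complement list (0.60), and for H2-Aa (826 CPM), H2-Eb1 (665) and Slc16a3 (63.8). NR1 was the lowest for Cyp26b1 (51.3, others 109 to 117), Fcgr3 (187) and Vdr (24.6) and the highest for Gart (90.5). NR3 was the highest in the immediate early and heat shock list (1.29, others 0.10 to 0.15) and for Fos (432). R6 had the highest total count of the R tumours (37951183) and the highest Per2 (40.2) and Arntl (32.0), R2 the highest Cpa3 (69.9), and R1 the highest Ikzf2 (15.6).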

How the results depend on the processing

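The 0 calls by edgeR held with DESeq2 size factors, without the filter on low counts, with at least 10 counts in every tumour, with no fold change minimum, with the name series as a block, with limma-voom, with R6 thinned to the median depth of the other 9 and without R1, R4 and NR2. DESeq2 called 108 higher and 13 lower, one fit over all 39 tumours 0 and 1, series 2 alone 155 and 20, series 4 alone 1 and 4, and an adjusted p under 0.10 with no fold change minimum 624 and 331. Leaving out 1 tumour gave 0 to 181 higher and 0 to 24 lower, the highest of each without R5, and 1 higher without NR2. At an unadjusted p under 0.05, leaving out 1 tumour gave 1203 (without NR1) to 2205 higher and 1063 to 2134 (without R5) lower, series 4 alone 316 and 175, and the fit without R1, R4 and NR2 677 lower. The difference on the second principal component turned from 12.9 to -6.22 without R3. Over the tumours left out it ran from -6.22 to 16.7, and on the first component from 7.83 to 21.2. Of 3376 log2 fold changes of 161 named genes under 21 alternatives, 317 reached an adjusted p under 0.05, 117 by DESeq2, 113 without R5 and 82 in series 2 alone, and the sign turned in 22. Over the tumours left out Alas2 ran from -0.73 to 0.09, Hbb-bs from -0.63 to 0.07, Mylpf from -1.05 to 0.09 (the highest of each without NR2), Il1b from -0.15 to 0.23 (negative without R2 or NR4) and Lep from -1.01 to 0.02 (without NR4). Without R1, R4 and NR2 it turned for Alas2 (0.17), Hbb-bs (0.05), Mylpf (0.02) and Dsp (-0.37), and in series 4 alone for Acp5 (0.39), Ccnb2 (0.05), Chil3 (-0.79), Ctla4 (-0.58), Ctsk (0.09), Cxadr (0.04), Dhrs3 (-0.03), Fos (0.17), Foxp3 (-0.0), Ikzf2 (-0.03), Mmp9 (0.27) and Per2 (-0.17). The fit over all 39 tumours gave fewer IFN-γ, MHC, T cell and cytotoxic genes at p under 0.05, as stated with each list. The cause of the differences between settings was not tested. The limma, series, thinning and 3-tumour settings and the 0.10 threshold were chosen after seeing the data. No paired analysis was possible because the replicate numbers follow the order of the samples and tie no tumour to another. With 6 against 4 tumours the smallest exact permutation p is 0.00476.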
